A study of Triticum aestivum with 12 samples.

Results

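The loci described here are the transcribed regions of the wheat genome that the count table of this series lists outside its reference gene set. The table names each reference gene by a TraesCS identifier and each further locus by a prefix for newly assembled loci and a running number, so a locus is called here by that number (locus 7354). The members are the loci of the second kind with at least 10 counts summed over the 12 libraries. Of 13328 such rows, 643 had 0 counts, 342 had 1 to 9 counts and 12343 were members, which is 13.96% of the 88429 rows that reached the minimum. The other 76086 rows were reference genes.

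The members had no name, and 9569 of the 12343 had no description either. Bread wheat carries the subgenomes A, B and D, and most of its DNA is transposable elements, sequences that copy or move themselves and that are filtered out of gene annotations on purpose. Genes for very short proteins, non-coding RNAs and genes that are hard to assemble are also commonly missing from a reference gene set. A locus assembled from RNA reads can be any of these, or a part of a neighbouring gene.

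The libraries were made from wheat shoots, the upper part of seedlings that had germinated 2 months earlier and received no treatment. The groups were the lines C20, C22 and C40, which overexpress TaSIP1ΔC, and wild type (WT), with 3 libraries each. The transgene's promoter and the wheat variety were not given in the sources used here. The labels do not say that replicates came from separate plants, so p-values measure the spread between libraries, which may be technical. The transgene's own level was not examined here, because the table pairs no identifier with the name TaSIP1.

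Library totals ranged from 25622422 to 31028886 counts over C20, C40 and the first 2 replicates of C22, with 38454215 in C22 replicate 3, and from 37757184 to 43532179 in WT. The labelled tissue carried its markers, since chlorophyll a/b binding proteins, the light-harvesting antenna of leaf cells, summed to between 24850 and 127349 CPM in every library. CPM is the count per 1000000 of the library total after TMM scaling, which sets the libraries to a common level by the bulk of their genes. C20 replicate 3 and C40 replicate 1 stood apart from the other line libraries in dividing-cell genes. Core histones, the proteins that package DNA and are made mostly while it is copied, reached 1490 CPM in C20 replicate 3 and only 1157 CPM in C40 replicate 1, whereas the remaining 7 libraries of the lines held 5018 to 12601 CPM, against 1145 to 1302 CPM in WT. These sums cover 303 rows, of which 8 were members. RNA of whole shoots cannot tell fewer cells of a type from less RNA per cell.

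The members were longer than reference genes and spanned more of the genome. Their median length in the table was 1508 bases, with quartiles of 913 and 2469 and a range of 201 to 19684, against a median of 1260.5 bases for reference genes with quartiles of 810 and 1824. From first to last base they spanned a median of 3220 bases, against 2502 for reference genes. In 10.9% of members the span equalled the length, as in a locus with no intron, against 22.4% of reference genes. The lengths are not of 1 kind, since 81.9% of reference lengths were multiples of 3 and only 33.8% of the members' lengths were. The reference lengths are therefore mostly coding lengths without untranslated ends, and the lengths of the 2 sets should be compared with that in mind. On strand the members were even, with 50.2% on the plus strand.

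**Figure D1:**
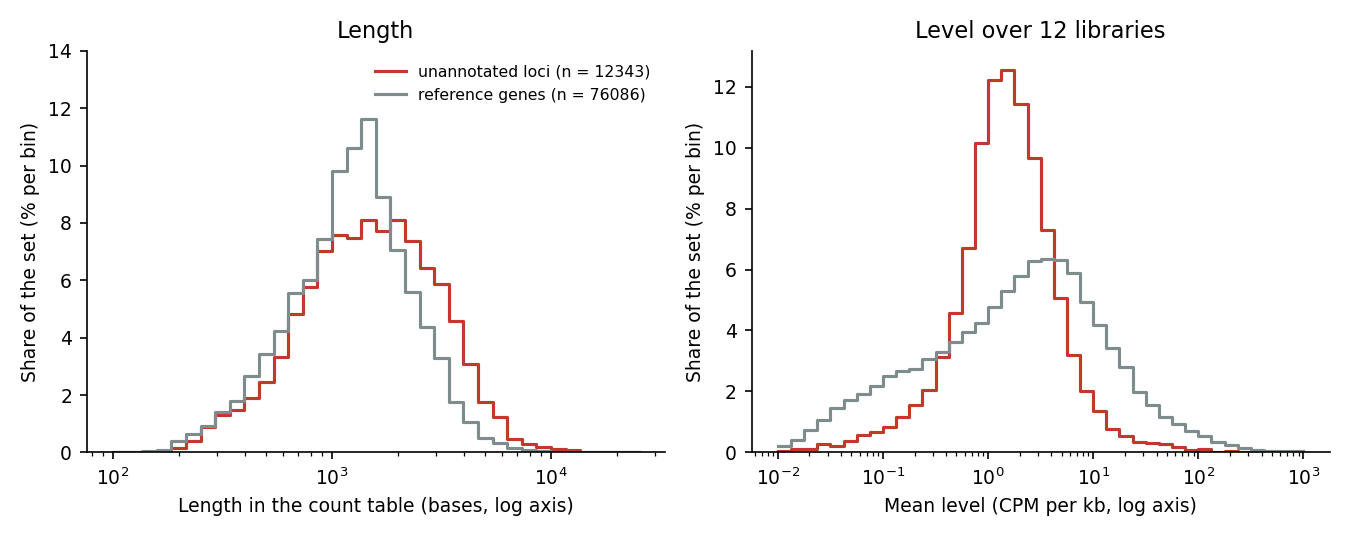
Left, the share of unannotated loci and of reference genes per bin of length in bases, and right, per bin of mean level over the 12 libraries in CPM per kb, both on log axes. The unannotated loci reach further to the right in length, and their levels lie in a narrower band, with a median of 1.5 CPM per kb against 2.17 for reference genes.

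Per length, the members sat in a narrow band of low levels. Their median level was 1.5 CPM per kb, and 10% of them were below 0.388 and 10% above 5.35 CPM per kb. Reference genes had a median of 2.17 CPM per kb, with 10% below 0.103 and 10% above 19.3, on lengths that mostly leave out untranslated ends. Only 28 members (0.227%) averaged at least 100 CPM, against 1.36% of reference genes. Their median biological coefficient of variation, the replicate spread relative to the mean, was 0.292, against 0.328 in reference genes. At the low end, 89.5% of members had a count in all 12 libraries, against 78.4% of reference genes. The 2 sets were not listed alike. Newly assembled loci are listed because reads were found, whereas reference genes are listed without that condition. Its part in these differences of level was not tested. The minimum that chose the members left 25 loci at exactly 10 counts just inside and 30 loci at 9 counts just outside.

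The members took 7.27%, 9.38% and 5.22% of all counts in C20 replicates 1 to 3, 7.06%, 8.39% and 7.37% in those of C22, 8.0%, 7.11% and 7.23% in those of C40, and 6.20%, 6.47% and 5.22% in those of WT. C20 replicate 3 was level with the lowest WT library, whereas C22, C40 and the other C20 libraries were above the WT range. After TMM scaling the order of the groups changed. The members then summed to 73368 ± 3441 CPM in C20, 66980 ± 890 in C22 and 65985 ± 9095 in C40, against 74157 ± 2596 CPM in WT (SD, n = 3 each). The direction of the summed level therefore depends on the scaling. The chlorophyll a/b binding proteins, the most abundant of the tissue markers, summed to 127349 CPM in C20 replicate 3, the C20 library with the lowest share of members. They summed to no more than 71785 CPM in the remaining line libraries, against 81912 to 123261 CPM in WT. Their part in the shares was not tested. At 1 CPM or more, 8744 ± 290 members were detected in C20, 8730 ± 84.2 in C22 and 8624 ± 122.5 in C40, against 8495 ± 168 in WT (SD, n = 3 each), and the ranges of C20 and C40 overlapped that of WT.

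Members lay on every chromosome, most densely in the B subgenome. There were 3786 in A, 4825 in B and 3304 in D, and 428 on sequence not placed on a chromosome. As a share of all measured rows this was 13.2% in A, 16.2% in B, 11.6% in D and 28.5% on unplaced sequence. The shares were highest on 6B (19.0%), 4B (18.8%) and 7B (17.7%), and lowest on 5D (10.1%) and 3D (10.5%). Per length of chromosome the subgenomes were closer, with 7.67 members per 10 Mb in A, 9.31 in B and 8.36 in D, against 50.5, 48.1 and 63.8 reference genes per 10 Mb. Chromosome length here is the end of the last row on it.

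Along the chromosomes the members were spread more evenly than reference genes. Cut into 5 equal parts by position, the chromosomes held 2676, 2149, 2078, 2150 and 2862 members from the start to the end, against 18806, 8267, 8774, 16605 and 22561 reference genes. Members made up 20.6% and 19.1% of measured rows in parts 2 and 3, and 12.5%, 11.5% and 11.3% in parts 1, 4 and 5. The gene-poor inner parts of wheat chromosomes, around the centromeres, thus held the highest share of members.

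**Figure D2:**
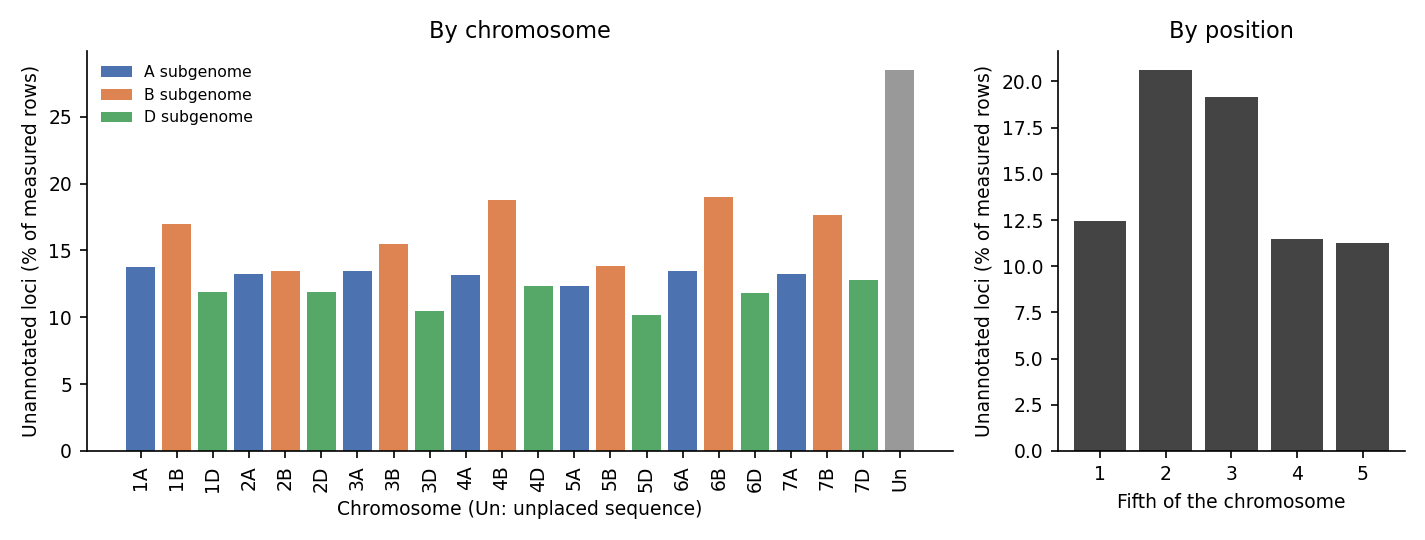
Unannotated loci as a percentage of all measured rows, left for each chromosome and for unplaced sequence (Un), coloured by subgenome, and right for each of 5 equal parts of the chromosomes by position. The B chromosomes 6B (19.0%) and 4B (18.8%) and part 2 (20.6%) stand highest among placed sequence.

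Nearly all members lay between reference genes, not on them, as their listing outside the reference gene set implies. Only 5 of 12343 overlapped a reference gene, 3 on its strand and 2 on the other. A further 1237 lay within 1 kb of the nearest reference gene, 2088 lay 1 to 5 kb away, 4253 lay 5 to 50 kb away and 4760 lay more than 50 kb away. The median gap was 25.2 kb, against 7.3 kb between a reference gene and its nearest reference neighbour. Of the members within 1 kb, 42.8% were on the neighbour's strand. Another member lay within 2 kb on the same strand for 671 of them (5.44%). The assembly of these loci, the annotation they were set against and the strand setting of the counting were not given in the sources used here. Reads of a close gene on the other strand may therefore be among a locus's counts.

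A Pfam description, which names the protein domains found in a translated sequence, was present for 2774 members (22.5%), against 70.8% of reference genes. Described members were longer, with a median of 1927 bases against 1411 for the rest, and had a median level of 1.67 CPM per kb against 1.47. On unplaced sequence 36.9% of members were described. Descriptions were also more frequent near genes, with 28.7% within 1 kb of a reference gene and 18.9% beyond 50 kb. The members' descriptions held 1067 different domains, and 1025 of these also occurred among measured reference genes.

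The most frequent descriptions were those of transposable elements. The list of transposase, reverse transcriptase, integrase and gag descriptions matched 541 members, 19.5% of the described, against 399 reference genes, 0.741% of the described. Members thus made up 57.6% of its carriers, whereas they made up 4.90% of all described rows. The MULE transposase domain, from the Mutator-like elements that move as DNA, was in 144 members and 60 reference genes. A reverse transcriptase domain (PF00078), by which retroelements copy their RNA into DNA, was in 46 members and 5 reference genes. The N-terminal helitron domain, from elements that move by rolling-circle copying, was in 34 members and 1 reference gene. A helicase of the PIF1 type, a DNA unwinding enzyme of which helitrons carry a relative, was described in 27 members and 0 reference genes, and Plant transposon protein in 13 and 0.

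The FAR1 DNA-binding domain, known from the Arabidopsis proteins FHY3 and FAR1, transposase-derived regulators of light signalling, was in 115 members and 63 reference genes. Its carriers were long, with a median length of 3088 bases against 2134 in reference genes, and summed to 539 to 721 CPM in the 9 line libraries, against 687 to 712 CPM in WT. The MULE carriers summed to 700 to 923 CPM in the lines, against 893 to 934 CPM in WT. Neither sum separated the lines from WT.

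A second kind of domain with mostly unannotated carriers belonged to very short proteins. Ribosomal protein L41, among the shortest proteins known, was described in 8 members and 0 reference genes. Ribosomal protein L37e was described in 6 and 0, the hinge protein of the ubiquinol-cytochrome c reductase of the respiratory chain in 6 and 1, RAMP4, a small membrane protein bound to ribosomes at the endoplasmic reticulum, in 7 and 1, the 4F5 family in 5 and 0, and the potato inhibitor I family of protease inhibitors in 4 and 1. Of 208 domains with at least 4 members, 39 had more than 50% of their measured carriers among the members.

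**Figure D3:**
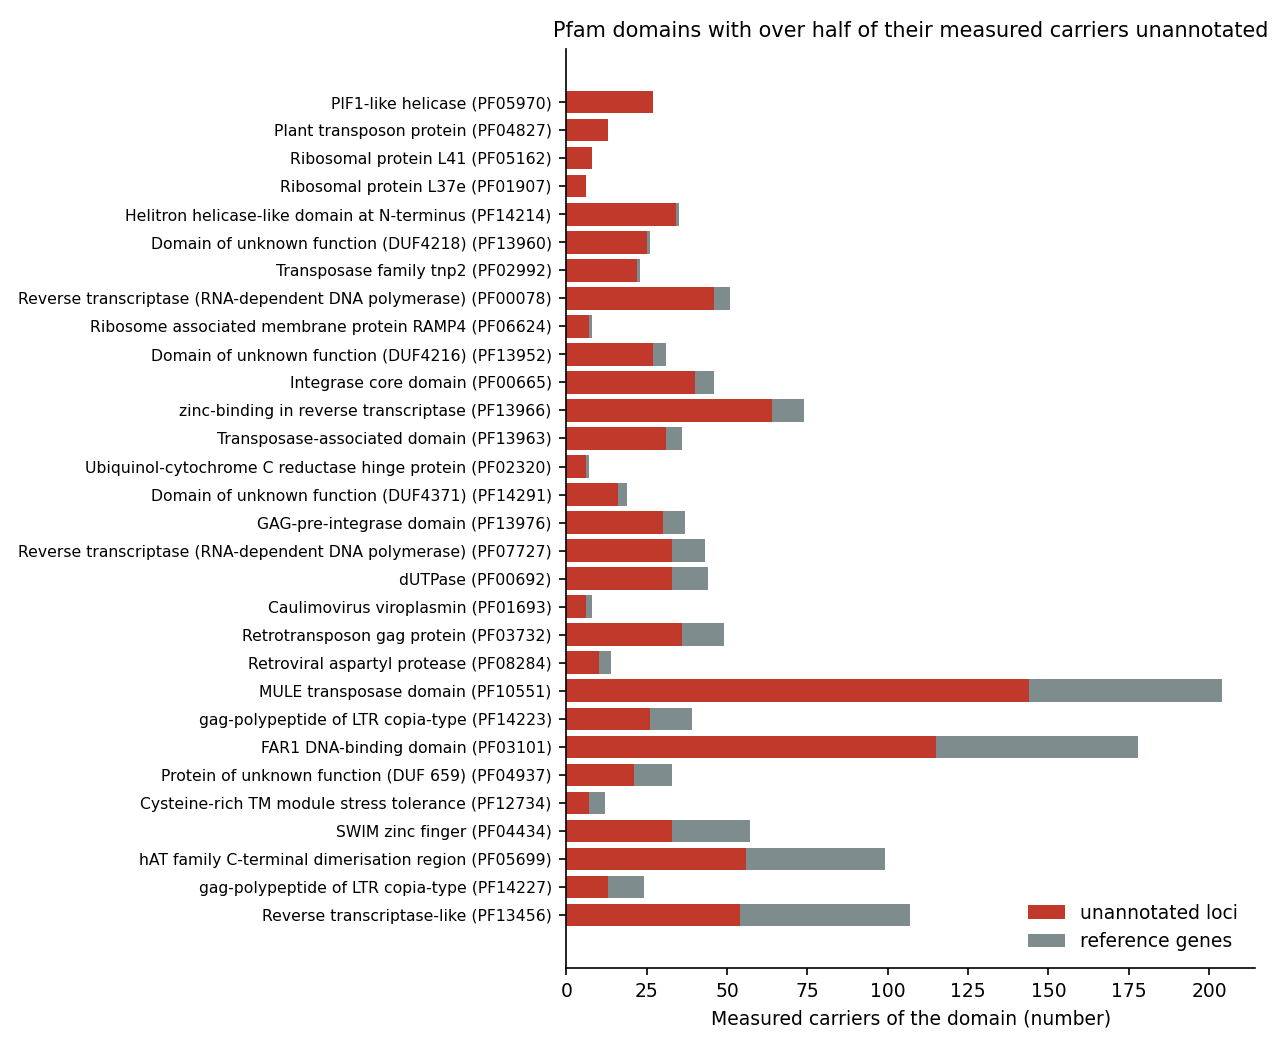
Number of measured carriers of each Pfam domain, split into unannotated loci and reference genes, for the domains with at least 6 unannotated carriers that make up more than 50% of all carriers. Transposon domains lead in number, up to 144 and 60 for MULE transposase, and 4 of the domains, among them ribosomal proteins L41 and L37e, had 0 reference carriers.

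The levels of these loci ranged widely, from means of 19.6 to 82.0 CPM for L41 and 8.78 to 23.5 CPM for the hinge protein down to 0.109 to 1.09 CPM for potato inhibitor I. The 8 L41 loci, with lengths of 432 to 2815 bases, summed to 474, 808 and 261 CPM in C20, 347, 475 and 324 in C22 and 245, 457 and 539 in C40, against 261, 228 and 114 CPM in WT. C40 replicate 1 and C20 replicate 3 were within the WT range and the other 7 line libraries were above it. Of the 8, 2 passed the test as higher in the mean of the lines and 0 as lower, with a median log2 fold change of 1.10. The 6 L37e loci, with means of 0.186 to 42.0 CPM, summed to 88.6, 154 and 59.5 CPM in C20, 66.2, 80.2 and 63.2 in C22 and 51.8, 86.8 and 95.7 in C40, against 56.4, 48.0 and 32.8 CPM in WT, and 2 of the 4 tested were called higher. The 6 hinge protein loci were level across the groups, with 73.4 to 136 CPM in the lines and 87.7 to 101 CPM in WT, and the 7 RAMP4 loci summed to 65.1 to 86.3 CPM in the lines and 61.4 to 64.7 CPM in WT. Of these 13 loci 0 were called by edgeR, although all 9 line sums of RAMP4 were above those of WT.

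The 10 members with the highest level were mostly genes of the chloroplast and of primary metabolism by description. Locus 13051, on unplaced sequence, is 1233 bases long without a gap and is described as a chlorophyll a/b binding protein. It had 538, 180 and 1142 CPM in C20, 506, 246 and 437 in C22 and 333, 271 and 258 in C40, against 508, 361 and 597 CPM in WT. The C20 libraries alone spanned more than the WT range, and the mean of the lines did not differ from WT by edgeR (log2 fold change -0.24 ± 0.43 SE, adjusted p = 0.705).

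Loci 11276 on 7A and 12673 on 7D are both described as class V aminotransferases, a family of pyridoxal phosphate enzymes. Locus 11276 had 353, 101 and 624 CPM in C20, 290, 154 and 258 in C22 and 340, 196 and 176 in C40, against 494, 543 and 761 CPM in WT. Locus 12673 had 324, 105 and 591 CPM in C20, 278, 154 and 246 in C22 and 309, 191 and 166 in C40, against 428, 423 and 634 CPM in WT. In both, C20 replicate 3 was within the WT range and the other 8 line libraries were below it, and neither passed the test (adjusted p = 0.0691 and 0.108). Locus 9980 on 6B, described as the delta subunit of ATP synthase, and locus 1680 on 1D, described with the TLP18.3 and Psb32 proteins of photosystem II repair, likewise had only C20 replicate 3 within the WT range, with adjusted p of 0.0713 and 0.0744 by edgeR. Without C20 replicate 3 and C40 replicate 1 all 4 loci passed as lower. The edgeR adjusted p was 0.00815 for locus 11276, 0.012 for locus 12673, 0.0126 for locus 9980 and 0.00696 for locus 1680. Leaving out the only line library within the WT range favours such calls, so they give no support of their own.

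Locus 3953 on 3A, described as ribosomal protein L7/L12, which forms the stalk of bacterial and plastid ribosomes, was lower in the lines. It had 216, 176 and 332 CPM in C20, 114, 76.4 and 109 in C22 and 151, 158 and 103 in C40, against 310, 337 and 334 CPM in WT, and only C20 replicate 3 lay within the WT range. The log2 fold change was -1.14 ± 0.22 (SE, adjusted p = 0.00805 by edgeR). Locus 11473 on 7B, described as profilin, an actin-binding protein, was level, with 143 to 214 CPM in the lines against 190 to 211 CPM in WT (adjusted p = 0.571). Locus 1267 on 1B, with no description and a length of 3830 bases, had 128, 106 and 156 CPM in C20, 184, 152 and 176 in C22 and 189, 137 and 147 in C40, against 249, 208 and 257 CPM in WT. All 9 line libraries were below all WT libraries (log2 fold change -0.65 ± 0.18, adjusted p = 0.0275 by edgeR). The remaining members of the 10, locus 12598 on 7D (an acid phosphatase description) and locus 12036 on 7B (a glycine-rich protein description), had adjusted p of 0.0617 and 0.376.

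Against WT, members were called less often than other genes. Of the 12343 members 11325 had counts high enough for the test, and 1018 did not. As the average over the 3 lines, 768 members were called higher (6.78%) and 1126 lower (9.94%) at an adjusted p of at most 0.05, against 11.5% and 11.7% of all 75788 rows tested. In either direction 16.7% of members were called, against 24.4% of reference genes and 23.2% of all tested. At an unadjusted p under 0.05 there were 3573, against 39.4% of all tested. The median log2 fold change over the members was 0.02, and 0.07 over all rows tested. Members with every line library above every WT library numbered 472 (4.17%, against 5.95% of all tested), and those with every one below numbered 817 (7.21%, against 8.13%). By level of expression, the share called higher was below that of reference genes in each of 5 bins of mean CPM, with 7.37% of members against 15.8% of reference genes at 1 to 3 CPM, 6.54% against 12.5% at 3 to 10 CPM and 5.93% against 9.06% from 10 CPM. The share called lower was not below it in each bin. It was 7.61% of members against 7.41% of reference genes at 1 to 3 CPM and 12.8% against 11.9% at 3 to 10 CPM, and 16.4% against 21.8% from 10 CPM.

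Without C20 replicate 3 and C40 replicate 1, 1725 members were higher and 2333 lower, and these counts held 766 of the 768 and 1125 of the 1126. That fit called 35.4% of members and 41.8% of all rows in either direction. Counts per list from it are given below. They are split by direction, whereas the 41.8% covers both directions, and no share by direction over all rows is given for this fit. A count that grew in it is therefore not read as a result about the list. Without WT replicates 1, 2 and 3 in turn the counts were 170, 108 and 149 higher and 503, 288 and 430 lower. The count of higher members was also more than 1.5 times smaller without C20 replicate 1 (485), C22 replicates 1, 2 and 3 (503, 426 and 475) and C40 replicate 3 (464), and larger without C20 replicate 3 (1539). The count of lower members was larger without C40 replicate 1 (1787).

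By line, C20 had 91 members called higher (0.804%, against 1.44% of all tested) and 81 lower (0.715%, against 1.02%), 1.52% in either direction against 2.46%. C22 had 516 higher (4.56%, against 9.48%) and 711 lower (6.28%, against 8.56%), 10.8% in either direction against 18%. C40 had 558 higher (4.93%, against 9.81%) and 984 lower (8.69%, against 8.8%), 13.6% in either direction against 18.6%. The 3 comparisons share the WT libraries. The C20 count of 172 moved to 1541 without C20 replicate 3, 48 without C20 replicate 1, 334 without C20 replicate 2, and 2338 without both C20 replicate 3 and C40 replicate 1. It fell to 21, 20 and 24 without WT replicates 1, 2 and 3, to 83, 99 and 72 without C22 replicates 1, 2 and 3 and to 92 without C40 replicate 2, and was 529 without C40 replicate 1. The C22 count of 1227 moved to 2181 without C20 replicate 2, 2032 without C20 replicate 3, 455, 299 and 444 without its own replicates 1, 2 and 3, and 433, 282 and 465 without those of WT. The C40 count of 1542 moved to 2404 without C20 replicate 2, 2457, 686 and 466 without its own replicates 1, 2 and 3, and 709, 520 and 705 without those of WT. C20 was fitted with the same estimate of spread as the other lines, and fitted with WT alone it gave 7 calls.

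**Figure D4:**
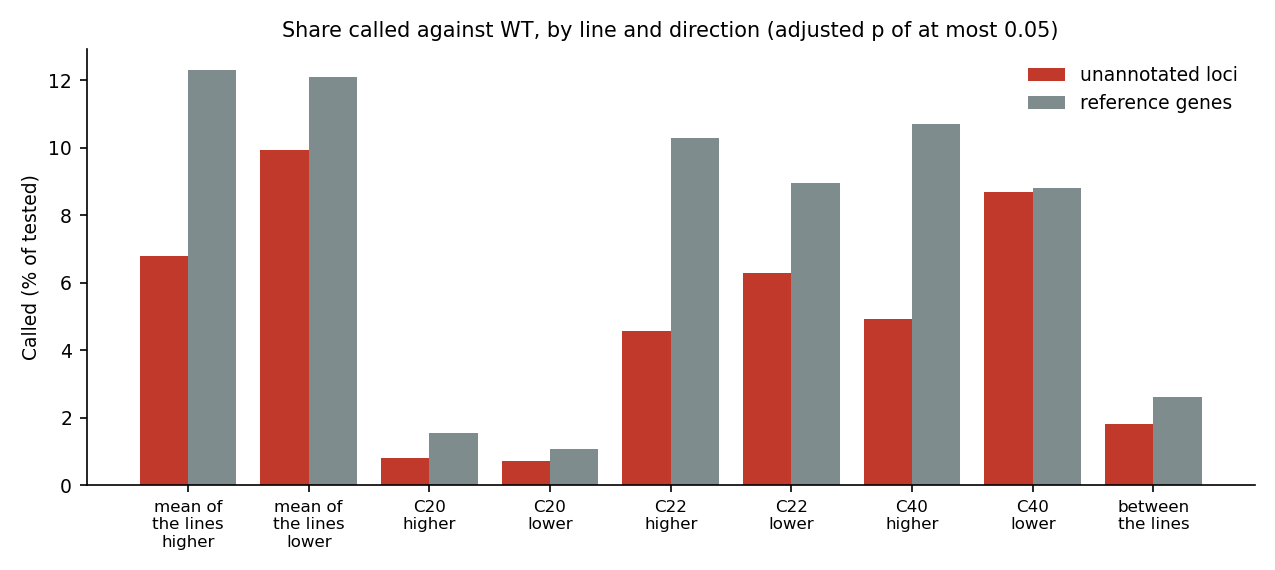
Percentage of tested unannotated loci and reference genes called at an adjusted p of at most 0.05 by edgeR, for the mean of the lines, for each line against WT and for any difference between the lines. In every comparison the bar of the unannotated loci is the lower one, and it comes closest for loci lower in C40 (8.69% and 8.82%).

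Among the 1203 called members whose nearest reference gene was also tested, that gene was called in the same direction for 197 (16.4%) and in the other direction for 115 (9.56%). Of all tested reference genes 12.3% were called higher and 12.1% lower. The share with the same direction was 17.3% within 1 kb and 13.3% beyond 50 kb. The share of members called was 18.6% within 1 kb and 15.9% beyond 50 kb.

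Of 511 tested members with transposon domains, 31 were called higher in the mean of the lines (6.07%, against 11.5% of all rows tested) and 70 lower (13.7%, against 11.7%). In either direction this is 19.8%, against 23.2% of all rows, and members as a whole had 6.78% higher and 9.94% lower. The list had a median log2 fold change of -0.08, against 0.07 over all rows tested. Their summed level was 3032 to 4412 CPM in the 9 line libraries, against 4080 to 4271 CPM in WT, with C40 replicate 1 above the WT range and the other 8 below it. Among the 253 tested reference genes with these domains, 23 were higher and 10 lower. Without C20 replicate 3 and C40 replicate 1 the members' counts were 60 higher and 142 lower. Locus 344 on 1A, 6873 bases with a gypsy-type transposon description, had 3.29, 1.53 and 4.59 CPM in C20, 4.69, 5.21 and 5.09 in C22 and 2.62, 3.34 and 1.83 in C40, against 17.5, 14 and 19.2 CPM in WT. No line library came into the WT range (log2 fold change -2.30 ± 0.25, adjusted p = 0.000797 by edgeR). Locus 1484 on 1D, with a transposase-associated domain, fell by 1.49 (log2, SE 0.22), with an edgeR adjusted p of 0.0028.

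Of 86 tested members with ribosomal protein descriptions, 30 rose (34.9%, against 11.5% of all rows), 2 fell (2.33%, against 11.7%) and 54 were not called, with a median log2 fold change of 0.77, and the corresponding reference genes gave 243 higher and 90 lower of 718. Their sums were 2388, 3718 and 1987 CPM in C20, 1878, 2308 and 1800 in C22 and 1656, 2345 and 2644 in C40, against 1857, 1719 and 1318 CPM in WT. C22 replicate 3 and C40 replicate 1 lay within the WT range and the other 7 line libraries above it. Without C20 replicate 3 and C40 replicate 1, 53 were higher and 11 lower of 87. Locus 3953, described above, was 1 of the 2 that fell. Locus 3102 on 2B, a ubiquitin and ribosomal protein L40e fusion by description, averaged 0.678 ± 0.0586 CPM in C20, 0.836 ± 0.178 in C22 and 1.01 ± 0.405 in C40, against 0.189 ± 0.0860 CPM in WT (SD, n = 3 each, adjusted p = 0.00737 by edgeR).

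The histone and cell cycle list had 18 tested members, of which 7 rose (38.9%, against 11.5% of all rows), 0 fell and 11 were not called. The reference genes of the list were called more often, with 430 higher and 10 lower of 660. Their median log2 fold change was 4.29, against 2.24 in the members. The members' sums were 117, 297 and 27.9 CPM in C20, 139, 221 and 150 in C22 and 44.9, 130 and 209 in C40, against 35.1, 39.1 and 30.4 CPM in WT. C20 replicate 3 was thus below the WT range and the other 8 line libraries above it, C40 replicate 1 least. Locus 10455 on 6D, described as histone H2A, had 12.9, 39.2 and 0.0450 CPM in C20, 16.5, 27.6 and 21.3 in C22 and 0.492, 25.3 and 31.3 in C40, against 0.0550, 0.0314 and 0 CPM in WT. Counted over all libraries, the lines had 5768 counts and WT 3, a ratio of levels of 660 with a counting interval of 226 to 3200 that covers counting error only. C20 replicate 3 was within the WT range and C40 replicate 1 was closer to it than to the other line libraries. Without these 2 libraries 13 of 18 members of the list were higher and 0 lower. These libraries were set apart by their low core histone sums, which include 8 members. The larger count therefore follows from that choice and gives no support of its own.

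A further list held NB-ARC, the nucleotide-binding domain of plant resistance proteins, and leucine-rich repeat descriptions. NB-ARC was in 22 members, and a leucine-rich repeat alone does not mark a resistance protein. Of 54 tested members of the list, 10 were higher (18.5%, against 11.5% of all rows) and 2 lower (3.7%, against 11.7%). The median log2 fold change was 0.43. There were 14 higher and 9 lower without C20 replicate 3 and C40 replicate 1. The reference genes of the list gave 205 higher and 128 lower of 1814. Locus 8943 on 5D, a kinase with leucine-rich repeats by description, had 3.47, 0.413 and 4.54 CPM in C20, 6.14, 3.85 and 3.78 in C22 and 5.57, 9.39 and 9.87 in C40, against 0.0825, 0 and 0.103 CPM in WT. All 9 line libraries were above WT, C20 replicate 2 least (adjusted p = 0.00248 by edgeR). Its nearest reference gene, TraesCS5D01G546600, 2.4 kb away on the other strand and described with NB-ARC, also rose (log2 fold change 5.55, adjusted p = 0.022 by edgeR), with 0.361 CPM in C20, 1.06 in C22 and 0.706 in C40, against 0.00916 CPM in WT. Locus 9235 on 6A, described with NB-ARC, rose by 1.78 ± 0.32 on the log2 scale (adjusted p = 0.00573 by edgeR). Protein kinase descriptions gave 19 higher (13.1%) and 8 lower (5.52%) of 145, and 31 and 19 of 146 without the same libraries. Locus 3574 on 2D, whose Mad3/BUB1 region is known from the spindle checkpoint, rose by 3.24 ± 0.61 (adjusted p = 0.00675 by edgeR).

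Of 14 tested members with pathogenesis-related and inhibitor descriptions, 6 were higher (42.9%, against 11.5% of all rows) and 2 lower (14.3%, against 11.7%). The reference genes of the list gave 76 higher and 26 lower of 332. Without C20 replicate 3 and C40 replicate 1, 8 members were higher and 2 lower of 16. The clearest fall was that of locus 6538 on 4B, described as a serpin, an inhibitor of serine proteases, with 0.803, 0.325 and 1.26 CPM in C20, 0.835, 0.726 and 1.02 in C22 and 1.63, 1.37 and 1.71 in C40, against 12.1, 11.6 and 14.1 CPM in WT. The groups did not overlap, and the log2 fold change was -3.62 ± 0.26 (adjusted p = 0.000121 by edgeR). Its nearest reference gene, TraesCS4B01G323000, a glyceraldehyde 3-phosphate dehydrogenase by description 9.35 kb away on the same strand, fell as well, with 872 CPM in C20, 521 in C22 and 478 in C40, against 2077 CPM in WT (log2 fold change -1.79, adjusted p = 0.0137 by edgeR). Of the 4 members in the potato inhibitor I family 2 could be tested. Both were called higher, too few to set against the 11.5% of all rows. Together the 4 summed to 0.315 to 5.68 CPM in the line libraries, against 0 to 0.0942 CPM in WT.

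Among enzymes, cytochrome P450 and transferase descriptions gave 4 higher (11.1%, against 11.5% of all rows) and 11 lower (30.6%, against 11.7%) of 36, and 5 and 15 without C20 replicate 3 and C40 replicate 1. The reference genes of the list gave 192 higher and 290 lower of 1356. Locus 13196 on unplaced sequence, a P450 by description, was at 0 to 0.497 CPM in the lines, against 1.10 to 3.09 CPM in WT (log2 fold change -3.12 ± 0.50, adjusted p = 0.0038 by edgeR). Locus 12210 on 7B, a UDP-glycosyltransferase by description, was at 2.08 to 4.72 CPM in the lines, against 0.754 to 1.37 CPM in WT (log2 fold change 1.62 ± 0.26, adjusted p = 0.00371). Ubiquitin and protease descriptions gave 12 higher (9.09%) and 9 lower (6.82%) of 132, and 23 of each of 133 without the same libraries. Locus 3966 on 3A, a peptidase of the M20 family by description, had 31.0, 10.2 and 21.1 CPM in C20, 3.37, 2.90 and 5.01 in C22 and 12.6, 10.6 and 9.28 in C40, against 36.3, 47.5 and 34.7 CPM in WT. It fell in the mean of the lines (adjusted p = 0.00152 by edgeR) and also differed between the lines (adjusted p = 0.0229 by edgeR).

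Transcription factor descriptions gave 4 higher (7.27%, against 11.5% of all rows) and 6 lower (10.9%, against 11.7%) of 55, and 8 and 11 of 56 without C20 replicate 3 and C40 replicate 1. Locus 4185 on 3A, of the MYB-CC type, was at 0.146 to 3.07 CPM in the lines, against 7.06 to 7.97 CPM in WT (log2 fold change -2.71 ± 0.43, adjusted p = 0.0035 by edgeR). F-box and BTB descriptions gave 3 higher (8.11%) and 1 lower (2.7%) of 37. Without the same libraries they gave 4 higher (10.8%) and 8 lower (21.6%), in a fit that called 41.8% of all rows in either direction. The 1 called lower with all libraries, locus 11153 on 7A, is 16994 bases long and is also described with a plant transposon protein and with Phloem protein 2. It had 5.40, 3.16 and 21.7 CPM in C20, 28.2, 24.9 and 32.4 in C22 and 31.2, 25.3 and 41.5 in C40, against 121, 106 and 104 CPM in WT. Photosynthesis and respiration descriptions gave 0 higher and 2 lower (6.9%) of 29, and 0 and 9 without the same libraries. Chaperones gave 1 higher (5.26%) and 4 lower (21.1%) of 19, and 6 (31.6%) and 5 (26.3%) without these libraries. Pentatricopeptide repeats gave 0 higher and 3 lower (17.6%) of 17, and 3 and 7 without them. Domains of unknown function gave 23 higher (8.16%) and 31 lower (11%) of 282, and 43 and 61 of 286 without them. The 8760 tested members without a description gave 517 higher and 867 lower, 15.8% in either direction against 23.2% of all rows.

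The largest changes were in loci that were near absent on 1 side. Locus 7354, on chromosome 4D from 451886064 to 451892276 on the minus strand, is 3737 bases long in a span of 6213 and has no description. It had 17.9, 16.7 and 10.6 CPM in C20, 12.9, 15.1 and 14.2 in C22 and 26.6, 23.2 and 27.2 in C40, against 0.137, 0.0314 and 0.0343 CPM in WT. Every line library, the ones low in histones included, was far above every WT library, and the log2 fold change was 7.88 ± 0.41 (adjusted p = 2.09e-05 by edgeR). The nearest reference gene, TraesCS4D01G281000, lay 53.2 kb away and had 0 CPM in every group.

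Locus 752, on 1B from 394507870 to 394509241, is described as a class I chitinase, a defence enzyme that cuts the chitin of fungal walls. It had 13.5, 1.53 and 18.5 CPM in C20, 9.70, 4.48 and 5.09 in C22 and 10.3, 14.4 and 14.3 in C40, against 0.0275, 0.0628 and 0 CPM in WT. WT had 3 counts in all and the lines 2727, a ratio of levels of 312 with a counting interval of 107 to 1513, and the adjusted p was 0.00142 by edgeR. Its nearest reference gene, TraesCS1B01G217500, 96.0 kb away, was at 7.20 CPM in C20, 8.03 in C22 and 9.20 in C40, against 11.3 CPM in WT, and was not called.

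Locus 5193 on 3B had 0 counts in every WT library and 2.01, 0.0590 and 1.35 CPM in C20, 2.57, 0.979 and 1.28 in C22 and 7.23, 14.6 and 15.7 in C40. With 3 counts over all WT libraries taken as the floor, it was at least 165-fold higher in the lines. Loci 6247 on 4B, 11190 on 7A and 8320 on 5B, the last described with DUF642, a family of plant cell wall proteins, also rose, but not in all line libraries alike. Locus 8320 had 8.22, 15.5 and 0.225 CPM in C20, 33.3, 41.8 and 27.4 in C22 and 0.554, 5.27 and 23.6 in C40, against 0.0275, 0.0942 and 0 CPM in WT. C20 replicate 3 and C40 replicate 1 were its lowest line libraries, and likewise those of locus 6247 (0.270 and 0.123 CPM, at least 131-fold higher in the lines) and locus 11190 (0.0900 and 0.0308 CPM). In locus 11190, C40 replicate 1 and WT replicate 1 had 1 count each, so only scaling set them apart. Loci 8320, 6247 and 11190 had edgeR adjusted p of 0.0111, 0.0172 and 0.0205. Each lost the call in 3 of 19 alternative settings.

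Among the falls, locus 11429, on 7A from 663757648 to 663759231, had 0.256, 0.325 and 0.270 CPM in C20, 0.418, 1.04 and 0.591 in C22 and 0.831, 0.720 and 1.33 in C40, against 33.6, 41.2 and 17.4 CPM in WT. The log2 fold change was -5.73 ± 0.29 (adjusted p = 2.09e-05 by edgeR). Locus 12537, on 7D from 574066481 to 574068169, had 0.329, 0.354 and 0.720 CPM in C20, 0.257, 0.0947 and 0.378 in C22 and 0.677, 0.425 and 0.807 in C40, against 21.6, 23.0 and 15.4 CPM in WT, a log2 fold change of -5.57 ± 0.29 with the same adjusted p. Locus 12166, on 7B from 632802987 to 632804025, was taken up after its values were seen. It had 0.694, 0.118 and 0.135 CPM in C20, 0.0964, 0.158 and 0.189 in C22 and 0.554, 0.523 and 0.341 in C40, against 9.13, 14.6 and 10.9 CPM in WT, and a log2 fold change of -5.33 (adjusted p = 0.000121 by edgeR). These 3 loci without description lie on the chromosomes of homoeologous group 7, 1 on each, and have lengths of 1584, 1606 and 1039 bases. Their sequences were not compared here, so whether they are copies of 1 locus is not known.

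Locus 10157, on 6B from 169166212 to 169171046, described with a GRF zinc finger, a nucleic acid binding fold, had 0.0730, 0 and 0.270 CPM in C20, 0.257, 0.0316 and 0.0710 in C22 and 0.708, 0.818 and 0.838 in C40, against 9.04, 11 and 13.3 CPM in WT (log2 fold change -5.69 ± 0.46, adjusted p = 0.000296 by edgeR). Its nearest reference gene, TraesCS6B01G162700, lies 1.2 kb away on the other strand and fell too, with 0.319 CPM in C20, 0.306 in C22 and 0.783 in C40, against 7.20 CPM in WT (log2 fold change -4.08, adjusted p = 9.1e-05 by edgeR). Locus 8 on 1A, described as a male sterility protein, the fatty acyl reductase family, had 0.329, 0.0885 and 1.48 CPM in C20, 0.129, 0.0631 and 0 in C22 and 0 in all 3 libraries of C40, against 6.82, 8.82 and 7.61 CPM in WT. In C40 it was at least 245-fold lower. Locus 5710 on 4A, which spans 55331 bases for a length of 750, had 1.5, 0.207 and 1.98 CPM in C20, 0.0321, 0.126 and 0.142 in C22 and 0 in all libraries of C40, against 2.25, 5.27 and 5.76 CPM in WT. Its nearest reference gene, TraesCS4A01G099200, a GDP-mannose 4,6 dehydratase by description 2.52 kb away on the same strand, also fell, with 66.3 CPM in C20, 28.3 in C22 and 49.5 in C40, against 116 CPM in WT (adjusted p = 0.00916 by edgeR). Locus 1168 on 1B, a RING finger protein by description, had 0.0730, 0 and 1.12 CPM in C20, 0 counts in C22 and 0, 0.556 and 0.0621 CPM in C40, against 3.63, 4.05 and 2.19 CPM in WT. In C22 it was at least 117-fold lower. It was not called in C20 or C40 against WT (adjusted p = 0.183 and 0.0788 by edgeR).

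A stricter rule, chosen after the values were seen, asked that every line library be at least 8-fold from every WT library with at least 1 CPM on the higher side. It held for 2 members above WT, loci 7354 and 752 (0.0172% of all rows tested held it), and for 5 below WT, loci 11429, 12537, 12166, 10157 and 7182 (0.0224% of all rows tested). Locus 7182 on 4D, 4914 bases without a gap or description, was at 0.0295 to 0.694 CPM in the lines, against 7.26 to 8.13 CPM in WT.

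The 3 lines carry the same transgene and were also set against each other. An F test found 206 members that differed between C20, C22 and C40 (1.82%, against 2.49% of all rows tested). Without C20 replicate 3 and C40 replicate 1 there were 253, of which 117 were among the 206. The count moved to 57 and 635 without C20 replicates 1 and 2, and to 47, 60 and 58 without those of C22. It was 96 and 74 when C40 replicates 2 and 3 were left out, and 88, 94 and 116 when WT replicates 1, 2 and 3 were.

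Several of these loci were present in some groups and near absent in others. Locus 3331, on 2D from 301360803 to 301364593 and described with the N-terminal domain of squalene-hopene cyclases, the family of triterpene cyclases, had 8.14, 11.6 and 7.96 CPM in C20, 8.26, 11.5 and 10.3 in C22 and 0.0308, 0.0327 and 0.0931 in C40, against 6.87, 7.79 and 8.47 CPM in WT. C40 was near 0 and the other groups overlapped (adjusted p between the lines 9.69e-05, log2 fold change of C40 against WT -7.10, adjusted p = 2.55e-05, both by edgeR). Locus 4116 on 3A had 6.72, 5.34 and 9.63 CPM in C20, 8.29, 5.59 and 6.98 in C22 and 0.0616, 0.229 and 0.0931 in C40, against 11.6, 13.6 and 8.40 CPM in WT (adjusted p between the lines 0.000856 by edgeR). In both, C40 was called lower against WT by edgeR, and C20 and C22 were not called. All C22 libraries of locus 4116 were nevertheless below the WT range.

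Other loci were low in C20 or had a level of their own in each line. Locus 4806 on 3B had 0.949, 1.21 and 1.12 CPM in C20, 12.5, 15.1 and 12.1 in C22 and 5.48, 4.48 and 4.97 in C40, against 13.5, 12 and 13.6 CPM in WT. C22 overlapped WT, C40 was below both, and C20 was lowest (adjusted p between the lines 9.69e-05 by edgeR). Locus 4877, also on 3B, had 9.82, 11.4 and 8.41 CPM in C20, 3.47, 3.35 and 4.09 in C22 and 0.462, 0.393 and 0.248 in C40, against 3.33, 3.45 and 3.57 CPM in WT, so C20 was above WT, C22 level with it and C40 below it (adjusted p between the lines 9.69e-05 by edgeR). Locus 11876 on 7B had 3.69, 3.95 and 3.37 CPM in C20, 1.70, 2.02 and 2.39 in C22 and 24.6, 14.8 and 16.5 in C40, against 19.8, 19.6 and 15.4 CPM in WT (adjusted p between the lines 0.000446 by edgeR). Here C40 overlapped WT, and C20 and C22 were both below. The nearest reference genes of these 5 loci had means of 0 to 0.0275 CPM in every group, except that of locus 4877, TraesCS3B01G145200, with 0.581 CPM in C20, 1.35 in C22 and 1.27 in C40, against 0.944 CPM in WT.

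By the 8-fold rule applied to 1 line against each of the other groups, C40 stood apart in 4 members above (0.0158% of all rows tested) and 2 below (0.00528%), C22 in 1 above (0.0185%) and 0 below (0.00132%), and C20 in 0 of either kind (0 of all rows tested). The 2 below are loci 3331 and 4116. Locus 6169 on 4A, 699 bases in a span of 71535, had 39.3, 8.34 and 7.51 CPM in C40, 0 in C20, 0.0321, 0.0947 and 0 in C22, and 0 in WT, at least 604-fold higher in C40 than WT by the same floor. Locus 10666 on 6D had 31.1, 5.23 and 5.53 CPM in C40 and at most 0.353 CPM in any other library, and locus 8410 on 5B had 3.17, 4.35 and 4.25 CPM in C40 and at most 0.275 CPM elsewhere. Locus 495 on 1A had 5.94, 4.68 and 4.07 CPM in C40, 0 in C20, 0, 0.126 and 0.142 in C22, and 0.165, 0.471 and 0.343 CPM in WT. In loci 6169 and 10666, C40 replicate 1 was several times above the other C40 libraries. Locus 4710 on 3B had 1.74, 2.02 and 3.03 CPM in C22 and at most 0.103 CPM in any other library.

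**Figure D5:**
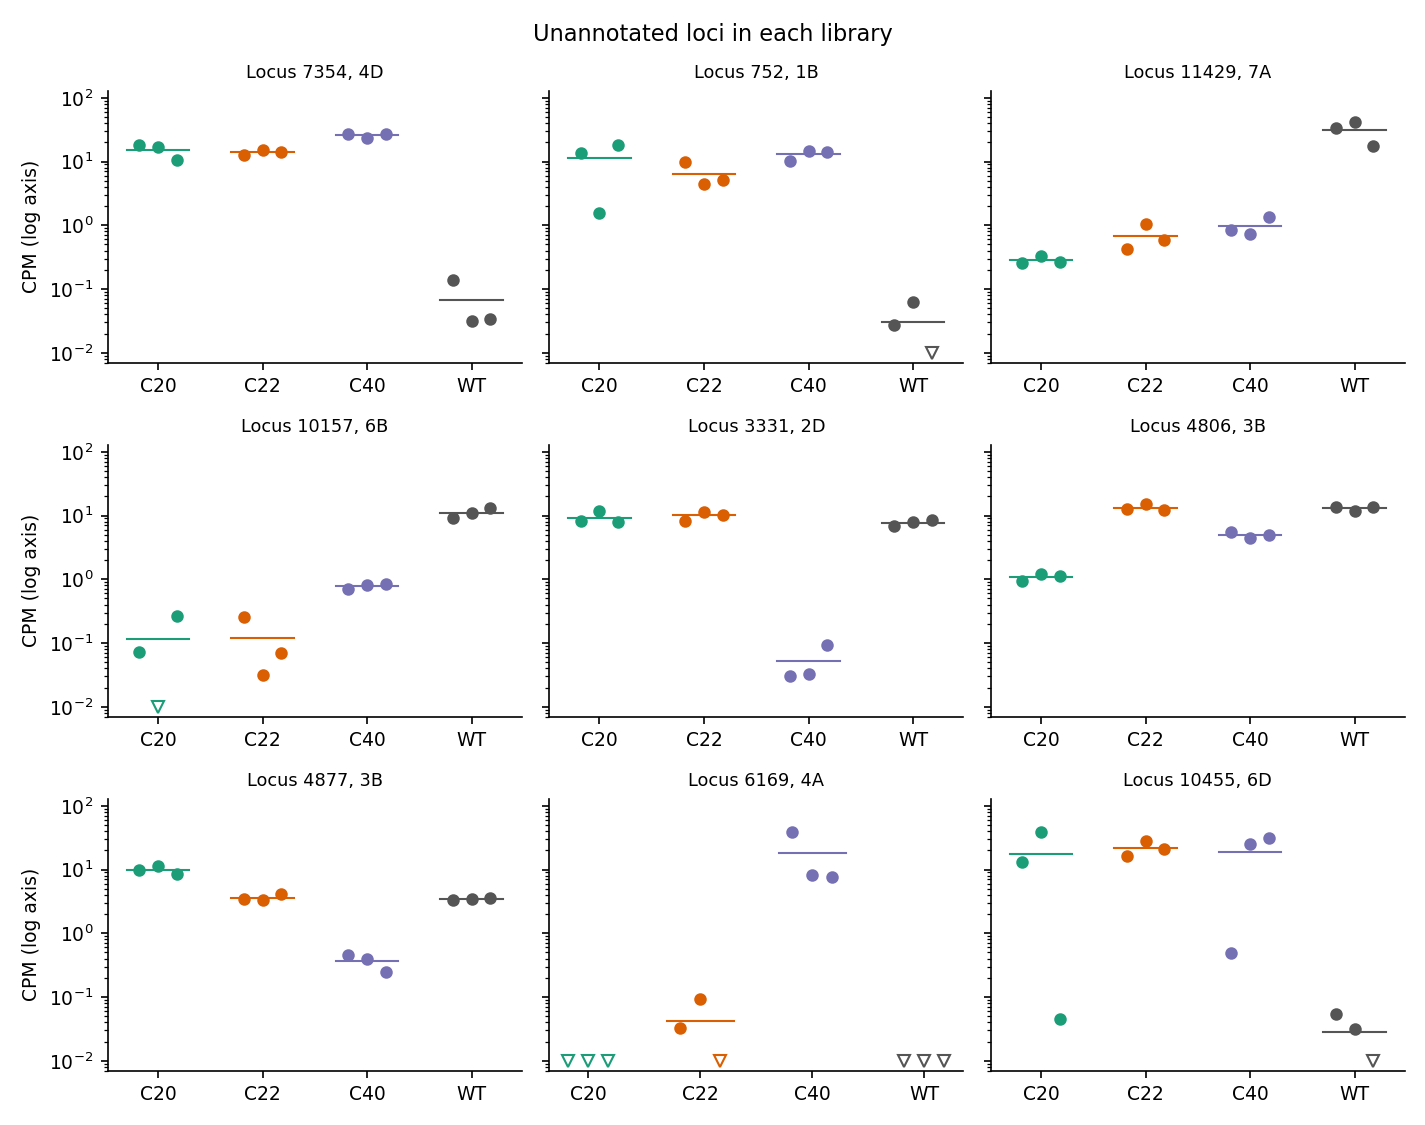
CPM of 9 unannotated loci in each library on a log axis, for C20, C22, C40 and WT, with filled points for libraries, horizontal bars for group means and open triangles at the bottom for libraries with 0 counts. Loci 7354 and 752 are high in all lines, 11429 and 10157 low in all lines, and 3331, 4806, 4877 and 6169 differ between lines. Locus 10455 is within the WT range in C20 replicate 3. In C40 replicate 1 it is above that range (0.492 CPM) but far below the other line libraries.

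A count of 0 in every library of a group was found for 108 members in C20, 36 in C22, 48 in C40 and 151 in WT, 259 members in all (2.10%, against 6.67% of reference genes). As stated for the levels, members and reference genes were not listed alike. Only 14 of the 259 reached a mean of 2 CPM in their highest group. A count of 0 over a group allows a level of up to 0.0359 CPM in C20, 0.0286 in C22, 0.0315 in C40 and 0.0308 in WT by the floor of 3 counts over the group.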

How the data were processed

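RNA-seq libraries (Trizol RNA, 1 µg each, NEBNext Ultra kit, per the labels) came from 12 samples in 4 groups. The deposited counts are raw reads per row, made by the authors with featureCounts 1.5.0-p3 per the submitters' processing notes, and FPKM values per row were deposited beside them. Aligner, genome build and annotation were not given in the sources used here. Coordinates are as deposited. Every column of sample values was used.

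Counts of all rows were fitted in R 4.3.3 with edgeR 4.0.16, using filterByExpr, TMM scaling, 4 group means, the quasi-likelihood test and Benjamini-Hochberg adjustment over the 75788 rows tested. A standard error (SE) was taken as |log2 fold change| divided by the root of its F. The code was tested on simulated data. Lengths, domains, places and levels were counted, with no test. Depth was 25622422 to 43532179 counts a library, and floors and intervals (95%, exact) cover counting error only.

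The members and lists were chosen with earlier results of these data known, and the 14 Pfam text patterns were narrowed after the matched descriptions were read. Loci were named by rule: the 10 highest levels, the 6 largest rises and 6 largest falls in the lines (at least 2 CPM, all 9 line libraries on 1 side of WT), 2 rises and 2 falls per line, the 5 lowest p between lines, up to 2 per list, and up to 5 with 0 counts in a group. Loci 7182, 8410, 10666, 4710 and 12166 were added after their values were seen.

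Alternatives were RLE size factors, DESeq2 1.42.0, no filter, 1 CPM in 3 libraries, a replicate block, limma 3.58.1 on log2(FPKM + 0.1), a 2-fold minimum, each line with WT alone, other count minima, each library left out and, added later, C20 replicate 3 and C40 replicate 1 left out together. Replicate pairs differed by a chi-square of 3.82 to 75.2 per member, so none were duplicates. Sequences of the members are not used here.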

Additional observations from a re-analysis of the deposited data

Results flagged for a closer look

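By an F test between C20, C22 and C40 in edgeR, 206 of 11325 tested unannotated loci differed between the lines, which carry the same transgene. Of the loci named in the text, 14 were among them. The adjusted p between the lines was 9.69e-05 for loci 4806, 3331 and 4877, 0.000446 for locus 11876 and 0.000856 for locus 4116. It was 0.00485 for locus 8410, 0.00526 for locus 495, 0.0151 for locus 4710, 0.0155 for locus 6169 and 0.0163 for locus 10666. It was 0.0229 for locus 3966, 0.0316 for locus 5710, 0.0322 for locus 12514 and 0.0353 for locus 3435.

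Locus 12514 on 7D, with a helix-loop-helix DNA-binding domain, had 0 counts in C20, 0.0643, 0.0316 and 0.142 CPM in C22 and 0.246, 0.294 and 0.528 CPM in C40, against 0.577, 0.597 and 0.686 CPM in WT. Locus 3435 on 2D had 0 counts in C20, 0.643, 0.442 and 0.591 CPM in C22 and 12.2, 0.916 and 1.06 CPM in C40, against 0.247, 0.534 and 0.446 CPM in WT, and its nearest reference gene averaged 0.0871 CPM in C20, 0.390 in C22 and 5.83 in C40, against 0.393 CPM in WT.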

How the results depend on the processing

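The share of members called in the mean of the lines was below that of all rows in the main fit and all 19 refits, from 3.44% against 5.43% to 35.4% against 41.8%. DESeq2 called 1273 members higher, and 1208 in C20, 2138 in C22, 2416 in C40 and 931 between the lines. At least 2-fold, 515 were lower. Fitted with WT alone, C20 gave 7 and C22 3502 calls. Without C20 replicate 3 and C40 replicate 1, 1725 were higher, 2333 lower, 2338 called in C20, 2779 in C22 and 3377 in C40. Leaving out each library gave 108 to 1539 higher, 288 to 1787 lower, 20 to 1541 in C20, 282 to 2181 in C22, 466 to 2457 in C40 and 47 to 635 between the lines. A replicate block gave 102 calls in C20 and 81 between the lines. Of 18 pairs of libraries with the same number 9 correlated above 0.1 in their deviations, namely 6 of 6 pairs of replicates 2 (r from 0.138 to 0.544) and 3 of 12 pairs of replicates 1 or 3 (r from -0.518 to 0.365). Not every pair did, so numbers were not taken as pairs, and 6 of 12 libraries correlated best with their own number. The cause of these changes was not tested. Of 44 named loci called in the lines, 0 changed sign in any setting; between 0 and 15 lost the call, most without WT replicate 2, and RLE factors lost 0. Their number was 13328 with no count minimum and 11190 at a minimum of 100. Folds of loci with few counts are limited by depth.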
